A study of Caenorhabditis elegans with 10 samples.

Results

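The titles of the samples gave the groups, as *mec-3(e1338)* or wildtype whole animal. Whole larvae carrying the *mec-3(e1338)* allele were compared with wild-type (N2) whole larvae on 2 arrays per genotype. These are 4 of the 10 arrays of the series, and each array measured 18451 genes. All animals were labelled as L2/L3 larvae and were grown at 25 °C on *Escherichia coli* strain Na22. Total RNA was taken from lysates of entire animals, amplified and hybridised to Affymetrix *C. elegans* tiling arrays. The remaining 6 arrays, 3 per genotype, are labelled PVD/OLL and hold poly(A) RNA recovered for the PVD and OLL sensory neurons. That RNA was recovered with a FLAG-tagged PAB-1, a poly(A) binding protein, expressed from the *ser-2prom3B* promoter. How much RNA of other tissues it holds was not analysed here, so a difference shared by both kinds of RNA is not placed in these neurons. These 6 arrays share no array with the whole-larva comparison and are used here to follow the same genes. Whether both kinds of RNA came from the same cultures is not given in the sources used here, nor is whether the whole larvae carried the tagging transgene.

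The product of *mec-3* is a LIM homeodomain transcription factor known for its role in touch receptor neurons and in the branching of the PVD dendrite. These are few cells of the animal, so a whole-larva RNA sample is dominated by other tissues such as epidermis, muscle and intestine. *C. elegans* larvae moult at the end of every larval stage, and transcripts for collagens, cuticle-processing proteases and moulting factors are known to rise and fall within each stage. Whether the large differences between whole larvae lie in such families was therefore of interest. The rows of the deposited table are named only by WormBase identifiers, and the gene table used here holds 0 of the 18451. Families, positions, tissue or stage markers and *mec-3* itself were therefore not analysed here, and no gene below is given a name or a role. No cause of a difference was tested, and genotype and the exact age of the cultures cannot be told apart. In RNA of whole animals, fewer cells of a type and less RNA per cell cannot be told apart either.

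Large falls were more common and much deeper than large rises in *mec-3* larvae. A gene is called different where limma's adjusted p lies under 0.05 over all 18451 genes. By that rule 531 genes were lower (2.88% of all genes) and 492 were higher (2.67%) in *mec-3*, 5.54% in both directions together. Every called gene differed at least 2-fold. At least 4-fold apart were 346 lower genes (1.88% of all genes) and 161 higher ones (0.873%). Counts parted further with size: past 8-fold there were 171 lower and 19 higher genes, past 16-fold 89 lower and 2 higher, and past 32-fold 37 lower and 0 higher. Past 128-fold 6 lower genes were left. The median difference (*mec-3* minus wild type) was -2.33 (log2) among lower genes, 1.78 among higher genes and -0.03 over all genes.

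The deepest fall was that of WBGene00011508. The wild-type arrays read 14.42 and 14.27 (log2), and the *mec-3* arrays read 6.12 and 5.24. The wild-type values lie near the top of the arrays, whose highest readings were 15.23 to 15.37, and the *mec-3* values lie below the array medians of 6.64 to 6.77. The means were 14.35 ± 0.10 (log2, SD, n = 2) and 5.68 ± 0.62 (n = 2), a 406-fold drop (-8.67 on the log2 scale with an SE of 0.36, limma adjusted p = 0.000569). WBGene00044548 followed the same course, with 13.82 and 13.69 in wild type against 4.95 and 5.66 in *mec-3*. It dropped 350-fold (-8.45 on the log2 scale with an SE of 0.33, limma adjusted p = 0.000569). In both genes the spread between replicates was small beside the gap between the groups.

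The largest rises started low. WBGene00013007 read 6.11 and 5.53 (log2) in wild type and 10.50 and 10.57 in *mec-3*, a 26.4-fold rise (log2 difference 4.72, SE 0.31, limma adjusted p = 0.00171). WBGene00009637 read 3.19 and 3.05 in wild type, close to the lowest readings of those arrays, 2.46 and 2.90. In *mec-3* it read 7.03 and 7.36, a 16.9-fold rise (log2 difference 4.08, SE 0.28, limma adjusted p = 0.00205). No detection limits were used here, so a fold that starts or ends in the dim range depends on how background was handled. All 4 genes kept their calls with each whole-larva array left out in turn. A single value of 2 arrays against 2 cannot go below p = 0.333 in a two-sided exact permutation test, so these calls rest on the spread that limma borrows across genes.

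**Figure D1:**
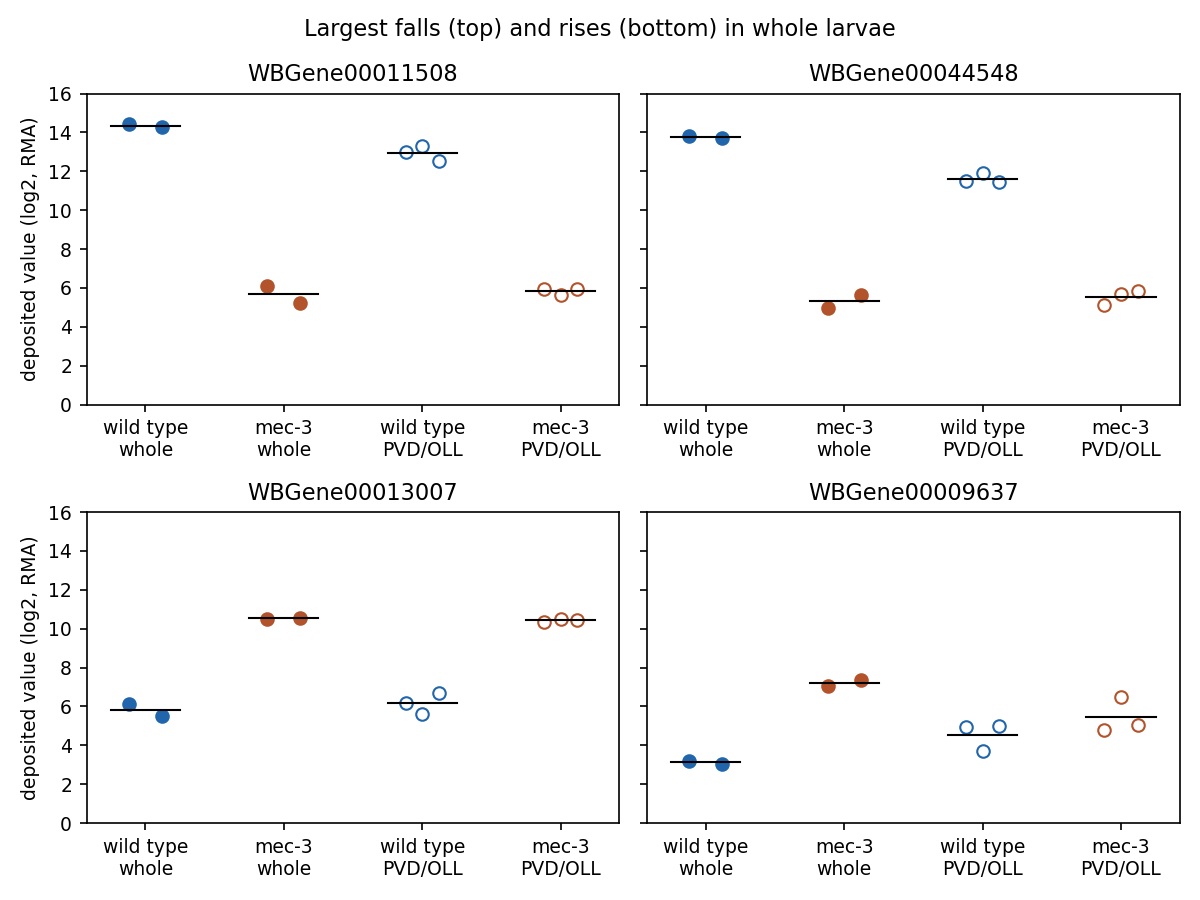
Deposited log2 values of the 2 genes with the largest fall (top) and the 2 with the largest rise (bottom), 1 point per array and a line at each group mean; filled points are whole larvae (n = 2 per genotype) and open points PVD/OLL (n = 3 per genotype). In whole larvae no gene's groups overlap, and in PVD/OLL the groups of WBGene00009637 do.

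The excess of deep falls can also be described without a fitted spread, from the distance between the nearest arrays of opposite genotype. The distances come from the same 4 arrays as the calls, so they restate the same differences and are not separate support. Both *mec-3* arrays lay below both wild-type arrays in 25.4% of all genes and above both in 25.2%. The 2 groups were separated by at least 2-fold in 650 genes lower and 677 higher in *mec-3*, nearly equal numbers. At a separation of at least 4-fold the counts were 250 lower (1.35% of all genes) and 67 higher (0.363%), and limma had called all of these genes. At 8-fold they were 120 and 10, and at 16-fold 55 and 1. Lower genes thus outnumbered higher ones among wide gaps and not among narrow ones.

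**Figure D2:**
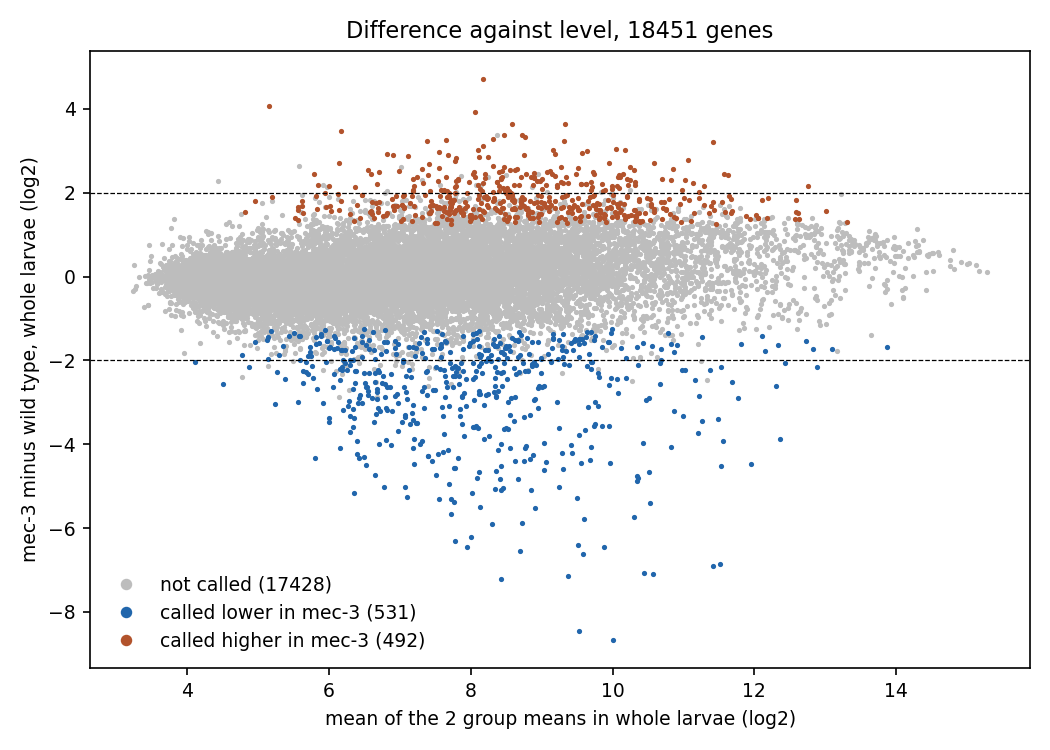
Difference between genotypes (log2, *mec-3* minus wild type) against the mean level (log2) in whole larvae, with 1 point per gene, called genes in colour and dashed lines at 4-fold in either direction. The lower genes reach -8.67 and the higher genes 4.72.

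Genes with large falls were mostly bright in wild type. Of the 346 genes lower by at least 4-fold, 276 lay in the top 25% of wild-type values and 6 in the bottom 50%. Their wild-type levels had a median of 9.63 (log2, range 5.11 to 14.95), against 6.71 over all genes. In *mec-3* the same genes had a median of 6.30 (range 3.09 to 11.80), and 197 of them lay in the bottom 50%. Starting from the top 25%, 25 genes ended in the bottom 25%, 102 in the next 25% up, 109 in the one above that, and 40 stayed in the top 25%.

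Rises moved up the range, and most did not start dim. Of the 161 genes higher by at least 4-fold, 46 lay in the top 25% of wild-type values and 48 in the bottom 50%. Their median was 7.46 (log2, range 3.12 to 11.68) in wild type, against 6.71 over all genes. In *mec-3* it was 9.97 (range 6.94 to 13.84). In *mec-3* 145 of them lay in the top 25% and 0 in the bottom 50%. The 7 genes that started in the bottom 25% of wild type all ended above the middle, and 0 of them reached the top 25%. The genes were chosen for the size of their difference between these same values, so the levels describe them and are not a separate result.

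Calls were few among dim genes. With genes ranked by the mean of all 4 arrays, the dimmest 20% held 5 lower and 2 higher calls, and the brightest 20% held 184 lower and 263 higher. The median difference drifted with level too, from -0.11 (log2) in the dimmest 20% and -0.16 in the next 20% to 0.32 in the brightest. The excess of lower genes was thus not seen among the brightest genes at this threshold. At 4-fold or more the brightest 20% held 118 lower and 82 higher genes.

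Replicates were closer to each other than to the other genotype. The wild-type pair correlated across genes at 0.952 and the *mec-3* pair at 0.974, while pairs of opposite genotype correlated at 0.894 to 0.918. The median SD per gene was 0.26 (log2) between the wild-type arrays and 0.20 between the *mec-3* arrays. The 2 wild-type arrays differed by over 4-fold in 199 genes, with a largest difference of 4.99 (log2), and the *mec-3* arrays in 63, with a largest of 3.94. Of these genes, 3 in the first case and 4 in the second were called, where 5.54% of all genes were called. A wide gap between replicates raises a gene's own spread, which makes a call less likely. Wild-type replicate 2 had the highest lower quartile of the 4 arrays, 5.44 against 5.07 to 5.16.

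The calls depended on single arrays. Without *mec-3* replicate 1, 141 genes were called lower and 19 higher, and without replicate 2, 140 and 13. Of the 346 genes lower by at least 4-fold, 136 and 137 were still called in those fits, against 19 and 11 of the 161 higher ones. Without wild-type replicate 1 the count of called genes grew, and without wild-type replicate 2 it fell. Without wild-type replicates 1 and 2, 337 and 303 of the lower and 155 and 131 of the higher genes were still called. Leaving out an array leaves 1 array in its group, whose spread is then taken from the other genotype.

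The same genes were followed in the PVD/OLL arrays, where 655 genes were lower (3.55% of all genes) and 476 higher (2.58%) in *mec-3* (limma, adjusted p under 0.05). WBGene00011508 read 12.99, 13.30 and 12.51 (log2) in wild-type and 5.94, 5.64 and 5.95 in *mec-3* PVD/OLL (difference -7.09, SE 0.24, limma adjusted p = 5.28e-06). WBGene00044548 read 11.49, 11.90 and 11.46 against 5.11, 5.67 and 5.83 (difference -6.08, SE 0.24, limma adjusted p = 9.96e-06). WBGene00013007 read 6.18, 5.62 and 6.68 against 10.36, 10.51 and 10.44 (difference 4.28, SE 0.27, limma adjusted p = 7.79e-05). In these 3 genes the PVD/OLL groups did not overlap, as was so for 13.9% of all genes with lower and 13.5% with higher values in *mec-3*, and the direction was that of whole larvae.

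WBGene00009637 did not follow this course. Its wild-type PVD/OLL arrays read 4.92, 3.69 and 5.02 (log2) and its *mec-3* arrays 4.77, 6.48 and 5.06, so that the groups overlapped (difference 0.89, SE 0.50, limma adjusted p = 0.362). Its difference of differences, PVD/OLL less whole larvae, was -3.19 (log2, SE 0.71), which did not pass over all genes (limma adjusted p = 0.175). For WBGene00011508, WBGene00044548 and WBGene00013007 that quantity was 1.58, 2.37 and -0.45, with limma adjusted p of 0.251, 0.149 and 0.810. Unadjusted limma p was 0.00365, 0.00013 and 0.317 for these 3 genes and 0.000901 for WBGene00009637. All 4 genes were chosen for the size of their whole-larva differences, which enter this quantity. A smaller difference in PVD/OLL can therefore follow from the choice alone. For these 4 genes the quantity cannot decide whether the difference depends on the kind of RNA.

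Most genes with large falls in whole larvae were also called lower in PVD/OLL, and the share grew with size up to 16-fold. That held for 338 of all 531 lower genes (63.7%), for 262 of the 346 at 4-fold (75.7%), for 150 of the 171 at 8-fold (87.7%) and for 81 of the 89 at 16-fold (91.0%). At 32-fold it held for 32 of 37 genes (86.5%), at 64-fold for 14 of 15 (93.3%) and at 128-fold for 6 of 6. All 171 genes lower by at least 8-fold lay below 0 in PVD/OLL, where their differences ran from -8.79 to -0.61 (log2) with a median of -3.06. Over all genes, 3.55% were called lower in PVD/OLL and the median difference there was -0.07. The 338 genes were 51.6% of the genes called lower in PVD/OLL.

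Of the 492 higher genes 182 (37.0%) were also called higher in PVD/OLL, as were 86 of the 161 at 4-fold (53.4%), 16 of the 19 at 8-fold (84.2%) and 1 of the 2 at 16-fold. The 182 genes were 38.2% of those called higher in PVD/OLL. Over all genes, 2.58% were called higher there. Among the 161 genes the median PVD/OLL difference was 1.10 (log2), and 154 lay above 0. Whether these shares differ from those of falls was not tested.

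**Figure D3:**
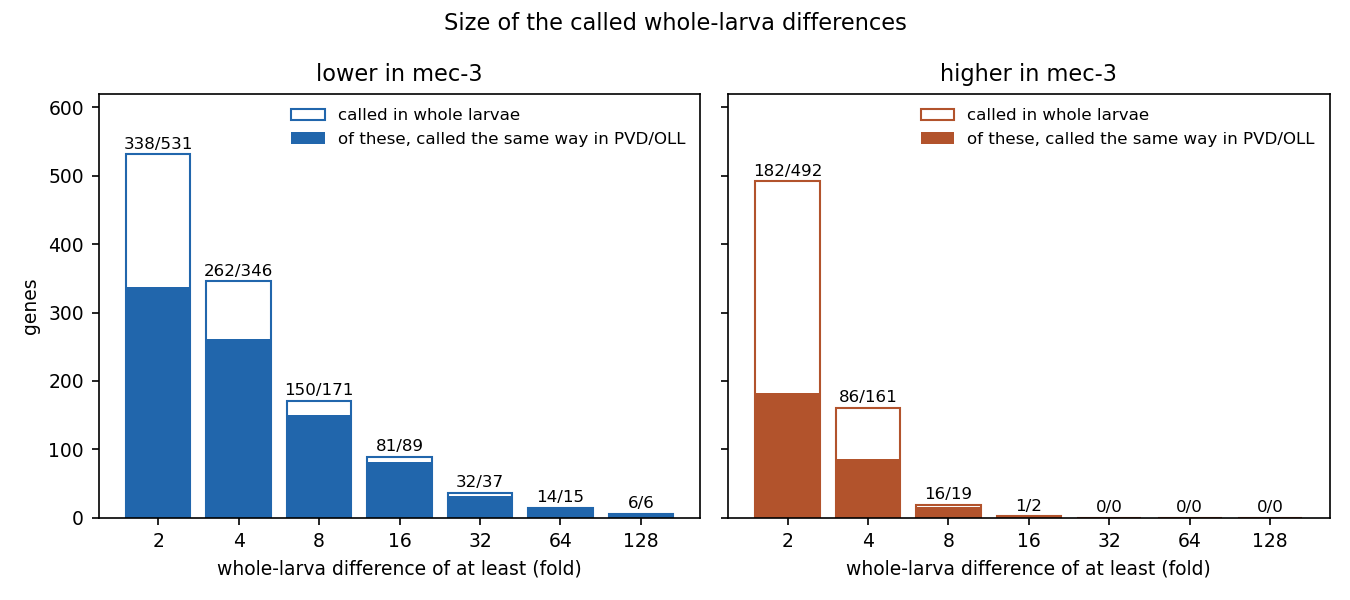
Number of genes called lower (left) and higher (right) in *mec-3* whole larvae at or above each fold; the filled part of each bar is the number also called in the same direction in PVD/OLL. Falls extend to at least 128-fold with 6 genes, and rises end in the 16-fold class with 2 genes.

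Opposite directions were rare. In limma 0 genes were called in opposite directions by the whole-larva and PVD/OLL comparisons. At an unadjusted p under 0.05 in both, 2018 genes had the same direction and 22 opposite ones. The difference of differences over all 10 arrays called 1 gene (0.00542% of all genes), while 1809 genes (9.80%) had an unadjusted p under 0.05.

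**Figure D4:**
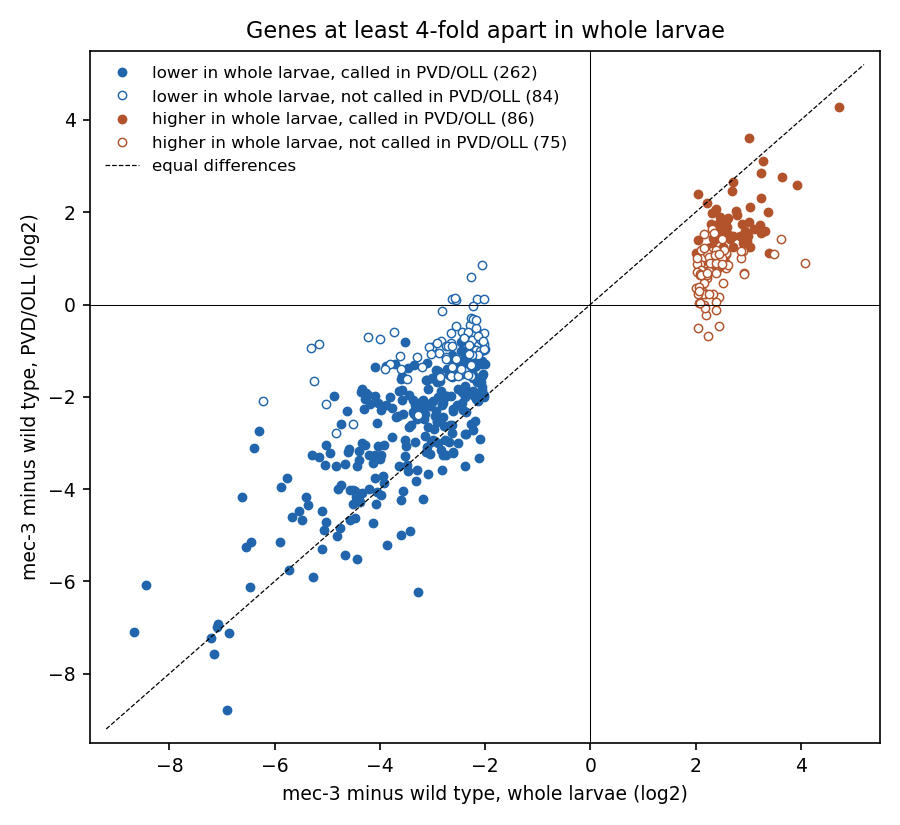
Difference between genotypes (log2, *mec-3* minus wild type) in PVD/OLL against that in whole larvae for the 507 genes called and at least 4-fold apart in whole larvae, with 1 point per gene, filled where the gene was also called in PVD/OLL. The genes were chosen by the horizontal value; 339 of the 346 lower genes lie below 0 on the vertical axis and 154 of the 161 higher genes above it.

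Without names, the identifiers themselves show whether large differences come in groups. Where a gene was lower by at least 4-fold and the next identifier number was also measured, that next gene was lower by at least 4-fold in 32 of 291 cases (11%). Over all 15774 pairs of successive numbers the share was 1.93%. For the 161 genes higher by at least 4-fold it was 1 of 143 cases (0.699%), against 0.888% over all pairs. That share rests on 1 pair and turned with the processing: it lay above the share of all pairs in 8 of 14 alternatives, among them centring of the arrays (1.85% against 1.01%) and leaving out wild-type replicate 1 (2.52% against 1.52%) or 2 (2.01% against 0.919%). For the lower genes it lay above in 14 of 14, at 5.74% to 11.3%. A minimum of 1.5-fold, counted among these alternatives, called the same genes as the main fit. At the threshold on p alone, both directions lay above the share of all pairs: 44 of 449 lower genes (9.80% against 2.93%) and 30 of 434 higher genes (6.91% against 2.75%). Levels of successive identifiers correlated at r = 0.319 over these pairs. The top 25% of wild-type values held 276 genes lower by at least 4-fold among 4530, and the part of level in the 11% was not tested. These shares were not tested, and what genes with successive numbers have in common was not analysed here.

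The falls in successive identifiers formed short runs. The 346 genes made up 289 single identifiers, 20 runs of 2, 3 runs of 3 and 2 runs of 4. Among genes higher by at least 4-fold in PVD/OLL, the next was also in the set in 1 of 23 cases (4.35%, against 0.133% over all pairs). That share rests on 1 pair. For genes lower by at least 4-fold in PVD/OLL it was 20 of 186 cases (10.8%, against 1.21% over all pairs). Without *mec-3* replicates 1 and 2 the whole-larva share was 9.09% and 5.74%, against 0.780% and 0.773% over all pairs. Over all pairs, the genotype differences of successive identifiers correlated weakly, at r = 0.117 in whole larvae, against 0.066 and 0.018 for the difference between the wild-type and between the *mec-3* replicates.

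**Figure D5:**
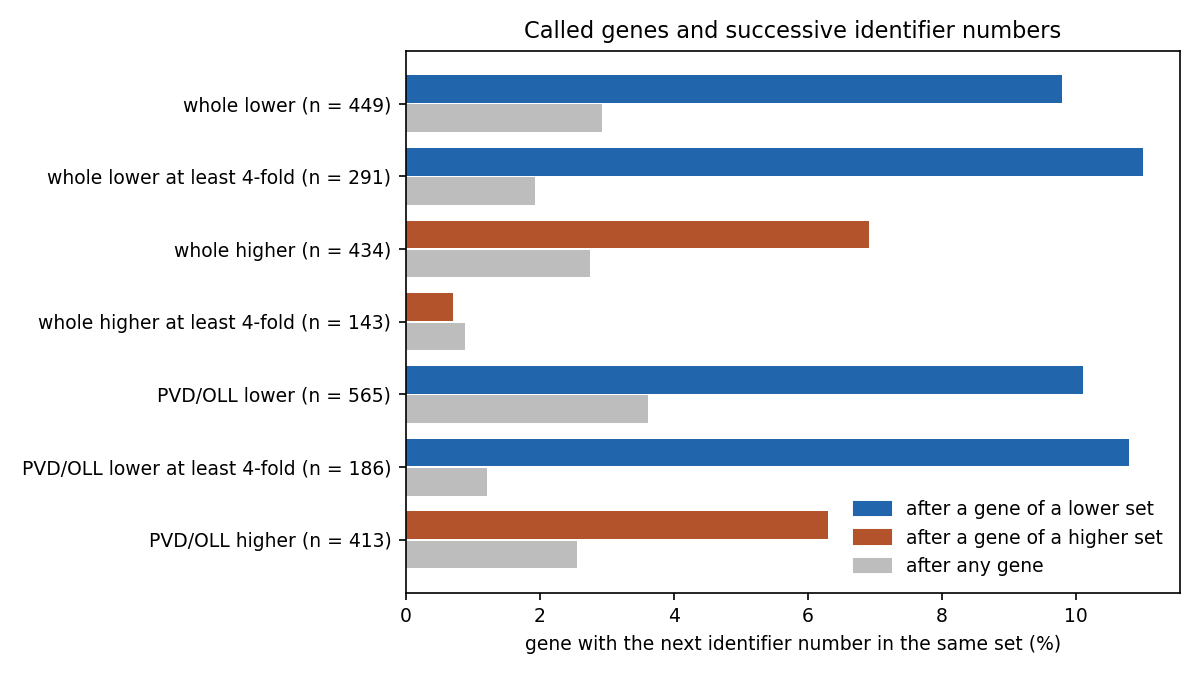
Share of genes (%) whose next identifier number belongs to the same set, in colour, beside the share over all 15774 pairs of successive numbers, in grey; n is the number of genes of the set whose next number was measured. Genes lower by at least 4-fold stand at 11% against 1.93%, and genes higher by at least 4-fold, with 1 pair, at 0.699% against 0.888%, an order that turned in 8 of 14 alternatives.

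The share of large falls also varied along the identifier numbers. Blocks of 1000 numbers were used, with all numbers from 22001 to 175030 in 1 block. The share of genes lower by at least 4-fold was 1.88% over all genes. It ran from 0.360% (1 of 278 genes, numbers 2001 to 3000) to 3.90% (34 of 871 genes, numbers 15001 to 16000). The block with the lowest share of falls held 19 higher genes, 6.83% of its genes, against 2.67% over all genes. The block from 5001 to 6000 held 1 higher gene among 780 (0.128%). Whether the blocks differ was not tested, and the levels of their genes were not taken into account.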

How the data were processed

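The authors deposited 1 log2 value per gene and array, made with RMA, which corrects background, normalizes arrays together and summarizes probes. RMA is named in the submitters' processing notes. The log2 scale was read from the values. The sources used here give no gene models, genome build, probe assignment or filters. The table has 0 missing values, 0 columns of no sample and 0 duplicated rows. The 4 whole-larva arrays were fitted with limma 3.58.1 (lmFit, then eBayes; R 4.3.3), without a filter, two-sided, with Benjamini-Hochberg adjustment over all 18451 genes. The 6 PVD/OLL arrays were fitted alone in the same way, and all 10 arrays with a mean per group for the difference of differences. PVD/OLL and whole-larva levels were not set against each other, since 1 joint normalization is not stated. The number of arrays limits precision, and p-values measure the spread between samples labelled as biological replicates.

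The genes given by identifier are, of the called genes with no overlap between groups, the 2 that fell and the 2 that rose most. The comparisons, the 34 gene lists and this rule were chosen with earlier results of these data known. The lists could not be matched to identifiers and gave no result. The distances between groups, the level classes and the successive identifiers were chosen after seeing the data. Replicate numbers were not taken as pairs: the deviations of same-numbered whole-larva arrays correlated at 0.047 across genes. The fits were checked on simulated arrays, on which the sizes of known differences were recovered on average. False calls on them were clearly more frequent than the nominal share. The counts of called genes can therefore hold more false calls than the threshold states.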

Additional observations from a re-analysis of the deposited data

Results flagged for a closer look

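The difference of differences called 1 gene of 18451, at 3.13 (log2, SE 0.32, limma adjusted p = 0.0157). In this fit its fall in *mec-3* was smaller in PVD/OLL than in whole larvae. It is given as the only gene that passed, and was not tested on other data. In whole larvae it read 13.16 and 12.99 in wild type and 9.18 and 9.51 in *mec-3*, a 13.3-fold fall (limma adjusted p = 0.0024). In PVD/OLL it read 11.48, 11.93 and 11.57 against 11, 10.98 and 11.18, a difference of -0.61 (limma adjusted p = 0.115). With each of the 10 arrays left out the quantity was 2.96 to 3.29, with adjusted p of 0.0251 to 0.170, and the call was lost in 8 of the 10 fits.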

How the results depend on the processing

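The count of 1023 called genes (48.1% of them higher) was within 1.5 times under quantile normalization, centring and removal of the dimmest 25%. The same held for array weights and for a robust prior with an intensity trend. A minimum of 1.5-fold could not change the count, since every called gene differed at least 2-fold. The count was 1588 (60.1% higher) without the dimmest 50% of genes, which also leaves fewer genes to test. It was 2481 (57.8% higher) with all 10 arrays in the fit and 1986 with an adjusted p under 0.10. Quantile normalization gave 505 lower and 348 higher genes, and centring 532 and 607, so the direction with more calls depended on scaling. The median over all genes moved to 0.04 and 0.03. The count of 507 genes at least 4-fold apart was 456 to 544 in all these settings, with 292 to 369 lower and 140 to 184 higher. With each whole-larva array left out, the count of called genes was 153 to 1591 and that at 4-fold 153 to 754. The 1591 and 754 came without wild-type replicate 1, and 160 and 153 without *mec-3* replicates 1 and 2. The fit with the replicate block called 1029 genes, 533 of them at least 4-fold apart. The 4 genes given by identifier kept direction and call in every setting that tested them, and WBGene00009637 was not tested without the dimmest 25% or 50%. The difference of differences called 0 to 16 genes in limma with each array left out, 0 in 8 of 10 fits, where 1341 to 2141 genes had an unadjusted p under 0.05. Its 5 calls came without wild-type PVD/OLL replicate 2, its 16 without wild-type whole-larva replicate 1. None of the 4 genes passed it in any of these fits. The cause of these changes was not tested.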
